A study of Mus musculus with 6 samples.

Results

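The H3K9 methylation and retroelement silencing machinery was examined as 32 genes of mouse embryonic stem cells (mESCs). They are the genes of histone H3 lysine 9 methyltransferases and their corepressors, HP1 proteins, the HUSH complex and MORC proteins, histone H3.3, histone chaperones, H3K9 demethylases, KRAB zinc finger proteins and 2 further heterochromatin factors. The members were taken by name from 53458 annotated genes, by their known roles and not by a cut-off on these values. All cells were TKO mESCs, a male line derived from J1 (129S4/SvJae) in which Dnmt1, Dnmt3a and Dnmt3b are knocked out, grown without feeders on gelatin. In TKO-serum the medium held 15% fetal calf serum and LIF at 500 U/ml. In TKO-2i it held the MEK inhibitor PD0325901 at 1 µM, the GSK3 inhibitor CHIR99021 at 3 µM and LIF at 1000 U/ml. There were 3 libraries in each condition, made from 500 ng of RNA by poly(A) selection with strand kept, and the comparison asks how the medium changes expression in cells that lack these DNA methyltransferases. The labels call the replicates biological, they come from 1 TKO line, and p-values measure the spread between these samples.

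H3K9 methylation marks silent chromatin. KRAB zinc finger proteins bind retroelements and recruit TRIM28, which brings SETDB1 to trimethylate H3K9, while HP1 proteins read the mark and the DAXX and ATRX chaperone places histone H3.3 on such elements. G9a and GLP dimethylate H3K9 in euchromatin, SUV39H1 and SUV39H2 act mainly at pericentromeric repeats, and enzymes of the KDM3 and KDM4 families remove the mark. In mESCs this machinery is known to silence retroelements largely without DNA methylation.

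The depth of TKO-2i replicates 1, 2 and 3 was 46228700, 44180642 and 43896549 estimated counts, and that of the same replicates of TKO-serum was 38274042, 51932739 and 44827609. At 3 counts a gene has between 0.0564 and 0.0778 CPM (counts scaled to the TMM-normalized library size) in these libraries, and every member lay far above that level. Levels of different genes were compared in TPM, which also allows for transcript length, and each gene was compared between conditions in CPM. Changes are TKO-2i over TKO-serum, as log2 fold change ± standard error, and a gene was called higher or lower where the quasi-likelihood test of edgeR gave p under 0.05 after Benjamini-Hochberg adjustment over the 18190 genes tested.

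Transcripts of the knocked-out genes were present. Dnmt1 had 150, 154 and 155 CPM in TKO-2i and 129, 130 and 129 CPM in TKO-serum. Dnmt3a had 7.14, 7.46 and 7.36 CPM in TKO-2i and 30.2, 29.4 and 30.7 CPM in TKO-serum. Dnmt3b had 19, 20.3 and 20.6 CPM in TKO-2i and 43.1, 42.2 and 43.9 CPM in TKO-serum. Values summed over the transcripts of a gene do not show which exons a knockout allele lacks, so they check neither the genotype nor the protein. Dnmt3l, the cofactor without catalytic activity, went from 634 ± 15.8 CPM in TKO-serum down to 64.2 ± 5.31 in TKO-2i (SD, n = 3 each). All 4 genes of this list were called, beside 62.5% of all tested genes, Dnmt1 as higher (0.24 ± 0.05) and the others as lower.

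Pluripotency markers were abundant in all 6 libraries. The calls in the marker lists here stand beside 62.5% of all tested genes called. Of 6 pluripotent stem cell markers 2 were called higher (Esrrb, and Nanog at 0.60 on chromosome 6, whose median was 0.41) and 2 lower (Sox2 and Zfp42), and their summed TPM was 5062, 4580.2 and 4573 in TKO-2i and 5658, 5309 and 5419.7 in TKO-serum, led by Dppa5a. All 4 primed epiblast markers, led by Dnmt3b in TKO-2i and by Otx2 in TKO-serum, were lower in TKO-2i, with 11.3, 14.4 and 12.9 summed TPM against 57.2, 62.0 and 59.5. Dnmt3b is knocked out in this line and was also counted among the DNA methyltransferases. It had a mean of 8.24 TPM in TKO-2i, and Otx2 had 27.3 TPM in TKO-serum. Of 5 primitive endoderm markers, led by Gata4, 4 were lower, with 4.56, 5.44 and 4.28 against 9.0, 10.3 and 11.4 summed TPM. Both sums lay far under that of the pluripotency list in every library. Of 4 mesoderm markers, led by T in TKO-2i and by Eomes in TKO-serum, 2 were higher, with 17.6, 18 and 22.9 against 2.40, 3.11 and 2.71 summed TPM. Of 5 trophoblast markers, led by Tfap2c, 3 were higher and 1 lower, with 42.1, 40.5 and 38.2 against 26.0, 26.7 and 24.8 summed TPM. Eomes is in both the mesoderm and the trophoblast list, so these lists are not separate. Among 5 fibroblast feeder markers 1 was higher, 2 were lower and 1 was not tested, and Fn1 held most of the sum of 205, 289.5 and 224 TPM in TKO-2i and 153, 171 and 173 TPM in TKO-serum. The part of these cell states in the members' values was not tested, and in bulk RNA fewer cells of a type and less RNA per cell cannot be told apart.

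All 32 members were expressed and tested, and 20 were called, 9 higher and 11 lower in TKO-2i. Over all tested genes 62.5% were called, 31.9% higher and 30.6% lower, so the members' share did not stand apart from that of all tested genes. The CPM of the conditions did not overlap for 22 members, against 67.5% of all tested genes. The median log2 fold change was -0.12 over the members and 0.01 over all genes. Changes were moderate in size, with a median of 0.43 among called members against 0.73 among all called genes, and 7 members changed by 1.5-fold or more. The lowest mean of a member was 9.48 TPM, while all called genes include genes of low counts, which are called only at larger changes. The 2 medians were not matched for level, so they do not show that the members changed less than genes of like level. Only Kdm3b and Kdm4c passed 2-fold, as shown in the plot of fold changes.

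**Figure D1:**
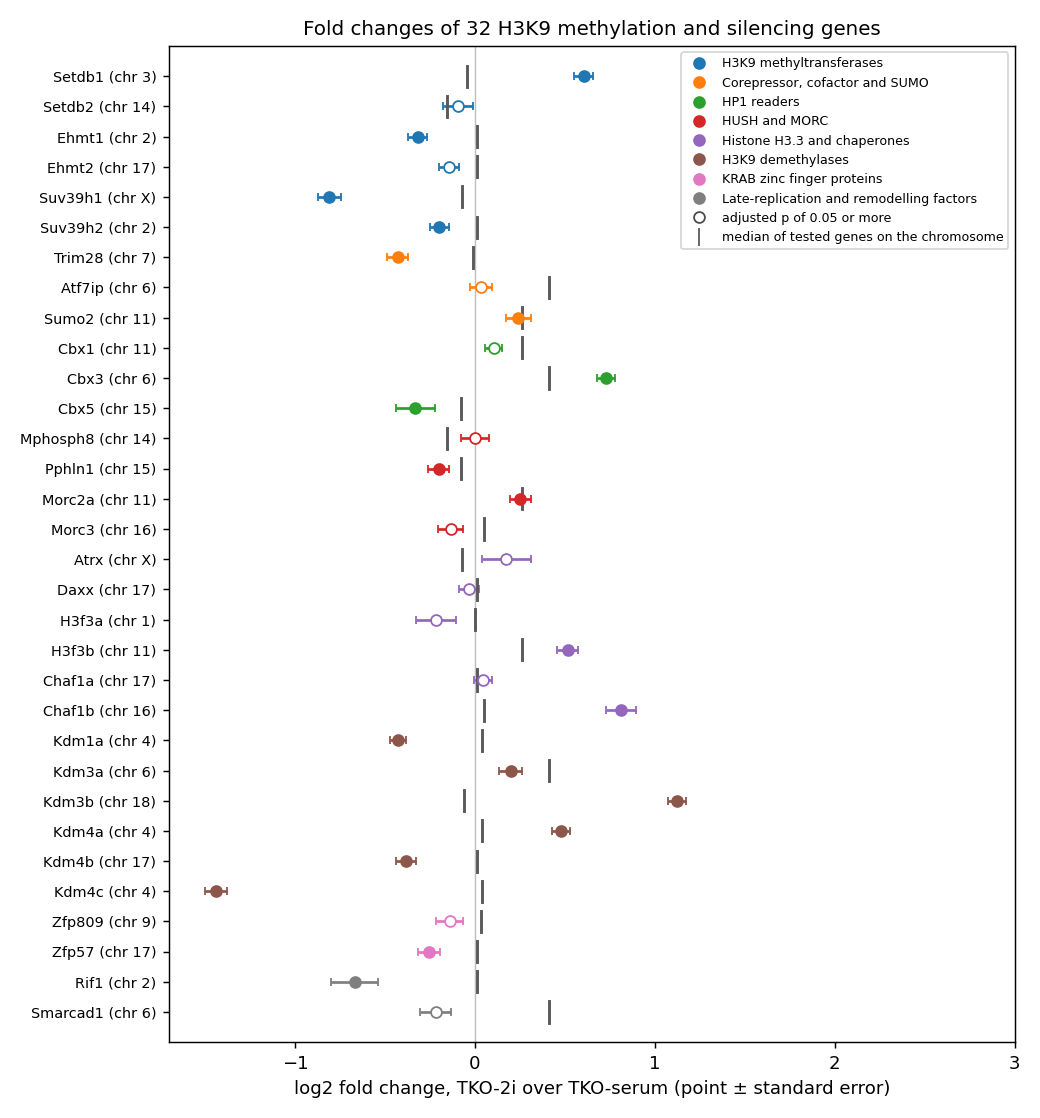
Log2 fold change (TKO-2i over TKO-serum, x axis) of the 32 genes, grouped by role, with bars for the standard error, filled points for genes with an adjusted p-value under 0.05 and a vertical tick for the median of all tested genes on the same chromosome. Kdm3b at 1.12 and Kdm4c at -1.44 lie outermost, and members on chromosomes 6 and 11 stand beside medians of 0.41 and 0.26.

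Chromosomes 6 and 11 were shifted as a whole, and 8 members lie on them. The median log2 fold change of tested genes was 0.41 on chromosome 6 and 0.26 on chromosome 11, while it was -0.11 on chromosome 13 and -0.15 on chromosome 14 and nearer to 0 elsewhere. Atf7ip, Cbx3, Kdm3a and Smarcad1 are on chromosome 6, and Sumo2, Cbx1, Morc2a and H3f3b on chromosome 11. Of these 8 members 5 were called, beside 62.5% of all tested genes. Setdb2 and Mphosph8 are on chromosome 14. A change in chromosome copy number was not tested.

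The H3K9 methyltransferases divided, with Setdb1 higher and Suv39h1, Suv39h2 and Ehmt1 lower in TKO-2i. Setdb1, the main trimethylase of retroelements (ENSMUSG00000015697; GRCm38 chr3:95323525-95357202, minus strand), had 278, 302 and 289 CPM in TKO-2i and 185, 196 and 191 CPM in TKO-serum. Every TKO-2i library lay above every TKO-serum library, a 1.52-fold difference (0.60 ± 0.05, adjusted p = 2e-05). Of its 75-base sequences 5.96% also occur in Gm4349, which had 5.45 CPM in TKO-2i against 3.47 in TKO-serum, so that the division of reads between them is uncertain at that scale. Setdb2, a related enzyme, had 17.5 ± 1.40 CPM in TKO-2i against 18.6 ± 1.52 in TKO-serum (SD, n = 3 each), and the conditions overlapped (adjusted p = 0.36). Setdb1 therefore held 86.3%, 87.4% and 88.3% of the TPM of this pair in TKO-2i and 83.1%, 79.8% and 81.9% in TKO-serum.

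Suv39h1 (ENSMUSG00000039231; chrX:8061171-8074760, minus strand), a trimethylase of pericentromeric heterochromatin, had 13.8, 13.4 and 12.4 CPM in TKO-2i and 23.3, 23.5 and 22.6 CPM in TKO-serum. The groups were well apart, with TKO-2i 1.75-fold lower (-0.81 ± 0.06, adjusted p = 1e-05). Its paralog Suv39h2 had 30.6, 31.9 and 32.9 CPM in TKO-2i and 37.9, 36.6 and 35 CPM in TKO-serum. That smaller fall (-0.20 ± 0.05, adjusted p = 0.012) had no overlap, but was not called without TKO-serum replicate 1 (adjusted p = 0.066, and from 0.01 to 0.066 as each library was left out). Summed over all transcripts, Suv39h2 held 76.3% ± 2.12 of the TPM of the pair in TKO-2i and 67.1% ± 1.41 in TKO-serum (SD, n = 3). Most of Suv39h2 TPM was the nonsense-mediated decay transcript Suv39h2-204 (means of 76.5% and 68.9%), looked at after its values were seen. From coding transcripts only, Suv39h2 held 52.8%, 49.1% and 54.8% in TKO-2i and 41.7%, 56.6% and 40.0% in TKO-serum. These overlapped (p = 0.4, exact two-sided permutation test), and which gene of the pair was the more abundant differed between libraries. Ehmt1, which encodes GLP, had 82.1, 83.1 and 79.0 CPM in TKO-2i and 100.4, 103 and 101.1 CPM in TKO-serum, a fall without overlap (-0.32 ± 0.05, adjusted p = 0.00061). Ehmt2, which encodes its partner G9a, had 168, 156 and 169 CPM in TKO-2i and 185, 173 and 187 CPM in TKO-serum. Those groups did not overlap, yet the difference was not called (-0.14 ± 0.06, adjusted p = 0.056). It was called under 9 of 17 alternatives, among them the fit without TKO-serum replicate 2 (adjusted p = 0.042, and from 0.042 to 0.19 as each library was left out).

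Trim28, the corepressor that links KRAB zinc finger proteins to SETDB1 (ENSMUSG00000005566; chr7:12999114-13031035, plus strand), had 1863, 1677 and 1909 CPM in TKO-2i and 2467, 2381 and 2496 CPM in TKO-serum. It fell in TKO-2i with no overlap, by 0.43 ± 0.06 on the log2 scale (adjusted p = 0.0002), and with 891 ± 42.6 TPM against 1285 ± 71.3 TPM it stayed among the most abundant members. Atf7ip, a cofactor that stabilises SETDB1 in the nucleus, had 131, 145 and 131 CPM in TKO-2i and 127, 134 and 137 CPM in TKO-serum. Those groups overlapped (0.03 ± 0.06, adjusted p = 0.65) and lay under the chromosome 6 median of 0.41, and with chromosome medians taken out the value was -0.38 (adjusted p = 0.00087). Sumo2, the modifier on which TRIM28 repression relies, had 335, 302 and 332 CPM in TKO-2i and 293, 273 and 255 CPM in TKO-serum. Its rise of 0.24 ± 0.07 (adjusted p = 0.014) was close in size to the chromosome 11 median of 0.26, and it was -0.02 (adjusted p = 0.79) with chromosome medians taken out. Without TKO-2i replicate 1, TKO-2i replicate 3 or TKO-serum replicate 3 it was not called (adjusted p = 0.064, 0.074 and 0.069, and from 0.0015 to 0.074 as each library was left out). Of the 75-base sequences of Sumo2 15.8% also occur in 11 other genes, which together had 0.152 CPM in TKO-2i against 0.0863 in TKO-serum.

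The genes of HP1 proteins, the readers of methylated H3K9, differed in their changes. Only Cbx3 was called in the main fit and under all 17 alternatives. Cbx3, which encodes HP1γ (ENSMUSG00000029836; chr6:51470360-51483704, plus strand), had 274, 272 and 276 CPM in TKO-2i and 166, 169 and 160.2 CPM in TKO-serum. It was 1.66-fold higher in TKO-2i with no overlap (0.73 ± 0.05, adjusted p = 3.9e-06), more than the chromosome 6 median of 0.41, and 0.32 (adjusted p = 0.0005) remained with chromosome medians taken out. Pseudogenes share 6.51% of its 75-base sequences and had 0.342 and 0.386 CPM in TKO-2i and TKO-serum.

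Cbx5, which encodes HP1α, had 279, 371 and 301 CPM in TKO-2i and 372, 434 and 391 CPM in TKO-serum. TKO-2i replicate 2 came within 1 CPM of the lowest TKO-serum library. The fall (-0.33 ± 0.11, adjusted p = 0.025) was not called without TKO-2i replicate 1, TKO-2i replicate 3, TKO-serum replicate 2 or TKO-serum replicate 3 (adjusted p = 0.052, 0.073, 0.091 and 0.059, and from 0.00017 to 0.091 as each library was left out). With chromosome medians taken out Cbx5 was not called either. Cbx1, which encodes HP1β, had 231, 228 and 230.4 CPM in TKO-2i and 216, 217 and 209 CPM in TKO-serum. Its groups did not overlap, but it was not called (0.10 ± 0.05, adjusted p = 0.084). It was called without TKO-2i replicate 2 (adjusted p = 0.045, and from 0.045 to 0.26 as each library was left out). With the chromosome 11 median of 0.26 taken out Cbx1 was at -0.16 (adjusted p = 0.017).

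Within the HP1 family Cbx3 held 60.7%, 57.4% and 60.6% of the summed TPM in TKO-2i and 47.2%, 45.4% and 46.9% in TKO-serum. Cbx1 held 28.9% ± 0.228 and 34.9% ± 0.136, and Cbx5 11.5% ± 1.64 and 18.7% ± 0.895 (SD, n = 3 each). None of these shares overlapped between conditions, and each had p = 0.1 in an exact two-sided permutation test, the smallest that 3 against 3 can give. The summed TPM of the family was 611 in TKO-2i and 499 in TKO-serum. The nonsense-mediated decay transcript Cbx1-204, also looked at after its values were seen, held 65.8% and 65.5% of Cbx1 TPM on average. From coding transcripts only, the mean shares were 73.4% and 59.9% for Cbx3, 12.2% and 15.5% for Cbx1 and 14.4% and 24.5% for Cbx5, so that the order of Cbx1 and Cbx5 turned.

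The HUSH complex and MORC proteins silence retroelements and other integrated DNA. Their 4 genes among the members showed small changes, with log2 fold changes from -0.20 to 0.25. Mphosph8, the HUSH subunit that binds methylated H3K9, had 87.9, 102 and 90.6 CPM in TKO-2i and 88.2, 100.2 and 92.3 CPM in TKO-serum, and these groups overlapped (0.00 ± 0.08, adjusted p = 1). Pphln1, which encodes the HUSH subunit periphilin, had 31.3, 33.6 and 31.7 CPM in TKO-2i and 36.2, 39.3 and 35.6 CPM in TKO-serum. It was lower in TKO-2i (-0.20 ± 0.06, adjusted p = 0.016), but not called without TKO-2i replicate 3 or TKO-serum replicate 2 (adjusted p = 0.055 and 0.073, and from 0.0054 to 0.073 as each library was left out). With chromosome medians taken out Pphln1 was not called either (adjusted p = 0.097). Morc2a, an ATPase that works with HUSH, had 187, 211 and 198 CPM in TKO-2i and 164, 171 and 165 CPM in TKO-serum. It was higher without overlap (0.25 ± 0.06, adjusted p = 0.0054) close in size to the chromosome 11 median of 0.26, and at -0.01 (adjusted p = 0.89) with chromosome medians taken out. With limma on log2(TPM + 1) it was not called (adjusted p = 0.22). Morc3 had 145, 168 and 146 CPM in TKO-2i and 164, 176 and 164 CPM in TKO-serum, with TKO-2i replicate 2 inside the TKO-serum range (-0.14 ± 0.07, adjusted p = 0.13). Without that library it was called lower (adjusted p = 0.0062, and from 0.0062 to 0.31 as each library was left out).

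Histone H3.3 is encoded by H3f3a and H3f3b, which give the same protein. H3f3b (ENSMUSG00000016559; chr11:116021912-116027962, minus strand) had 1116, 977 and 1042 CPM in TKO-2i and 765, 725 and 706 CPM in TKO-serum. It rose 1.43-fold with no overlap (0.51 ± 0.06, adjusted p = 0.00011), and 0.25 (adjusted p = 0.0064) remained with the chromosome 11 median taken out. H3f3a had 333, 252 and 315 CPM in TKO-2i and 389, 325 and 332 CPM in TKO-serum, overlapping through TKO-2i replicate 1 (-0.22 ± 0.11, adjusted p = 0.12). It was called lower without that library (adjusted p = 0.044, and from 0.044 to 0.38 as each library was left out) and with limma on log2(TPM + 1) (-0.34, adjusted p = 0.0058). The pair together had 2022 TPM in TKO-2i and 1937 TPM in TKO-serum, of which H3f3b held 64.1%, 65.8% and 63.2% in TKO-2i and 52%, 53.7% and 53.0% in TKO-serum. Other genes share 7.34% of the 75-base sequences of H3f3a and 3.42% of those of H3f3b, and their summed level was under 1 CPM in both conditions.

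Among the members, only transcripts of H3f3b were called for their use by all 4 usage tests. Of 193 member transcripts tested for their share of their gene, 4 were called, against 1.44% of all 40841 transcripts tested, and none of the 4 moved its share of the gene's TPM by 10 points. Larger moves were not called by the main usage test. Pphln1-202 held mean shares of 26.5% in TKO-2i and 4.20% in TKO-serum (adjusted p = 0.23, and 0.00074 by limma's diffSplice). Morc3-208 held 5.35% and 19.3% (adjusted p = 0.48 and 0.25 in the same tests). On simulated data the usage test missed most changed transcripts and many of its calls were false, so only the H3f3b transcripts, which all 4 usage tests called, are described by library. The 4 transcripts are named after their values were seen. H3f3b-203, a processed transcript, held 0.971%, 1.54% and 1.27% of H3f3b TPM in TKO-2i and 4.90%, 4.87% and 5.44% in TKO-serum. H3f3b-204, also a processed transcript, held 0.753%, 0.944% and 0.931% in TKO-2i and 4.82%, 3.37% and 4.07% in TKO-serum. The share of both was lower in every TKO-2i library than in any TKO-serum library, while the main coding transcript H3f3b-201 held 97.8% and 90.8% on average. The other called transcripts lost their call in further tests. Zfp57-208, with mean shares of 0.383% in TKO-2i and 3.20% in TKO-serum, was called by the main usage test alone (adjusted p = 0.018 by edgeR's diffSpliceDGE, and 0.24, 0.16 and 0.11 by the others). Atrx-206, with 1.53% and 4.27%, was called by 2 of the 4 tests (adjusted p = 0.029 and 0.0034, and 0.058 and 0.073).

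Among the chaperones the clearest change was in Chaf1b, the middle subunit of chromatin assembly factor 1 (CAF-1), which places histones behind replication forks. Chaf1b (ENSMUSG00000022945; chr16:93883901-93906115, plus strand) had 111, 94.3 and 112 CPM in TKO-2i and 62.4, 56.0 and 62.6 CPM in TKO-serum. It was 1.75-fold higher in TKO-2i with no overlap (0.81 ± 0.08, adjusted p = 4.4e-05). Chaf1a, the large subunit, had 146, 141 and 146 CPM in TKO-2i and 141, 136 and 144 CPM in TKO-serum, and these groups overlapped (0.04 ± 0.05, adjusted p = 0.49). Chaf1b accordingly held 72%, 68.7% and 71.9% of the TPM of the pair in TKO-2i and 60.5%, 57.7% and 60.0% in TKO-serum. Of 14 genes of S phase and proliferation 4 were called, all higher in TKO-2i (Mcm2, Mcm6, Pcna and Rrm2). Over all tested genes 62.5% were called and 31.9% were called higher. The rise of Mcm2 by 0.44 was close to the chromosome 6 median of 0.41, and the groups of Pcna overlapped (adjusted p = 0.049). The summed TPM of that list was 2989, 3157 and 2959 in TKO-2i and 2859.9, 2996 and 2922 in TKO-serum, and its part in the rise of Chaf1b was not tested.

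Atrx, the remodeller that works with DAXX, had 213, 317 and 235 CPM in TKO-2i and 214, 245 and 219 CPM in TKO-serum. TKO-2i replicate 2 was the highest of all and the groups overlapped (0.17 ± 0.14, adjusted p = 0.3), and without that library the value was -0.01 (adjusted p = 0.92, and from 0.083 to 0.92 as each library was left out). Daxx had 82.6, 75.3 and 82.4 CPM in TKO-2i and 84.4, 80.0 and 81.3 CPM in TKO-serum, also with overlap (-0.03 ± 0.06, adjusted p = 0.65). TKO-2i replicate 2 was the highest or the lowest TKO-2i library in 29 of the 32 members, against 21 for replicate 1 and 14 for replicate 3. In TKO-serum, too, replicate 2 was at the edge of its group most often, in 26 members against 22 and 16. Without TKO-2i replicate 2, 24 members were called, while the share of all tested genes called was 67.2%. The cause of these distances was not tested.

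All 6 H3K9 demethylases were called, 3 higher and 3 lower in TKO-2i, beside 62.5% of all tested genes, although Kdm3a kept its call and direction in only 11 of 17 alternatives. Kdm3b and Kdm4c had the largest rise and the largest fall among the members. Kdm3b, a demethylase of mono- and dimethylated H3K9 (ENSMUSG00000038773; chr18:34777047-34838660, plus strand), had 309, 332 and 319 CPM in TKO-2i and 149, 145 and 147 CPM in TKO-serum. It was 2.18-fold higher (1.12 ± 0.05, adjusted p = 4.5e-07), and no library of one condition came near the other. Its paralog Kdm3a, which is known to act in mESC self-renewal, had 331, 372 and 327 CPM in TKO-2i and 293, 311 and 294 CPM in TKO-serum. The groups did not overlap and Kdm3a was called higher (0.20 ± 0.06, adjusted p = 0.023), but less than the chromosome 6 median of 0.41, and with chromosome medians taken out it was called lower (-0.21, adjusted p = 0.018). It was not called without TKO-serum replicate 1 or TKO-serum replicate 3 (adjusted p = 0.078 and 0.084, and from 0.02 to 0.084 as each library was left out). Kdm3a remained the more abundant of the pair in TPM, although the share of Kdm3b was 31.3%, 30.6% and 32.5% in TKO-2i and 20.8%, 20.1% and 20.3% in TKO-serum. From coding transcripts only its mean share was 45.1% and 31.5%.

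The genes of KDM4 enzymes, which remove trimethylation of H3K9, changed in opposite directions. Kdm4c (ENSMUSG00000028397; chr4:74242497-74405860, plus strand) had 44.7, 50.4 and 47.6 CPM in TKO-2i and 128.3, 132 and 126 CPM in TKO-serum. It was 2.71-fold lower in TKO-2i (-1.44 ± 0.06, adjusted p = 3.3e-07), the largest change of any member, with the groups far apart. Kdm4a (chr4:118136957-118180043, minus strand) had 125, 127 and 123 CPM in TKO-2i and 91.6, 88.0 and 89.7 CPM in TKO-serum. That was a 1.39-fold rise with no overlap (0.48 ± 0.05, adjusted p = 4.9e-05). Kdm4b had 40.9, 39.1 and 42.0 CPM in TKO-2i and 52.6, 50.7 and 55.9 CPM in TKO-serum, a fall without overlap (-0.38 ± 0.06, adjusted p = 0.00037).

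The leading KDM4 gene therefore differed between the media, as the plot of family shares shows. Kdm4a held 45.9%, 48.9% and 47.4% of the family's TPM in TKO-2i and 26.9%, 24.2% and 23.6% in TKO-serum. Kdm4c held 23.0%, 24.8% and 25.0% in TKO-2i and 49.9%, 46.4% and 42.3% in TKO-serum. Neither share overlapped between conditions (p = 0.1 each, exact two-sided permutation test), while that of Kdm4b did (28.3% ± 2.42 against 28.9% ± 5.42, SD, n = 3, p = 1 in the same exact test). The summed TPM of the family was 65.5 in TKO-2i and 98.7 in TKO-serum. Part of it lay in the processed transcript Kdm4b-206, looked at after its values were seen, which held 20.5% to 50.9% of Kdm4b TPM across the libraries. From coding transcripts only the sums were 56.9 and 84.0 TPM, and the shares of Kdm4b still overlapped (p = 0.2, exact two-sided permutation test). Kdm1a, which encodes LSD1, a demethylase of H3K4 that can also act on H3K9, had 282, 281 and 286 CPM in TKO-2i and 384, 379.6 and 378 CPM in TKO-serum. It fell by 0.43 ± 0.04 on the log2 scale with no overlap (adjusted p = 5.2e-05).

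**Figure D2:**
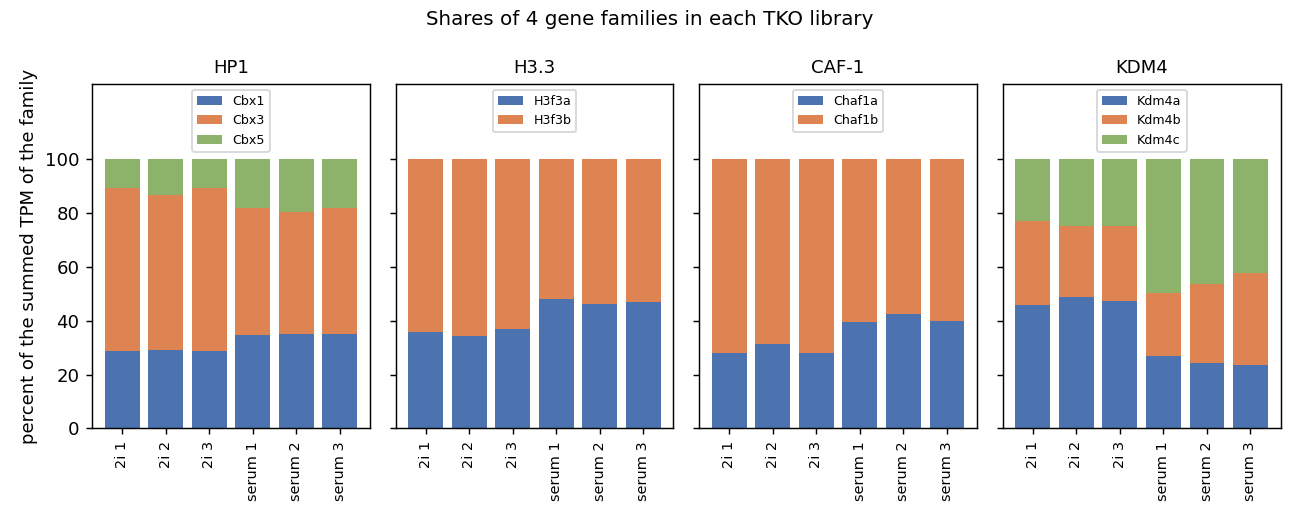
Share of each gene in the summed TPM of its family (percent, y axis) in each TKO-2i and TKO-serum library (x axis), for HP1, histone H3.3, CAF-1 and KDM4 genes. Cbx3, H3f3b, Chaf1b and Kdm4a take a larger share in every TKO-2i library than in any TKO-serum library, and Kdm4c a smaller one.

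Zfp57, the KRAB zinc finger protein that keeps imprints, had 244, 271 and 274 CPM in TKO-2i and 305, 317 and 320.0 CPM in TKO-serum. It was lower in TKO-2i without overlap (-0.26 ± 0.06, adjusted p = 0.0052). Zfp809, which binds the primer binding site of murine leukaemia viruses, had 42.6, 51.4 and 45.1 CPM in TKO-2i and 49.2, 53.5 and 50.7 CPM in TKO-serum, with overlap through TKO-2i replicate 2 (-0.14 ± 0.07, adjusted p = 0.13). Without that library Zfp809 was called lower (adjusted p = 0.0053, and from 0.0053 to 0.34 as each library was left out).

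Rif1, a regulator of late replication that also takes part in repeat silencing (ENSMUSG00000036202; chr2:52072832-52122383, plus strand), had 351, 505 and 381 CPM in TKO-2i and 615, 721 and 631 CPM in TKO-serum. Replicate 2 was the highest library in both conditions, and the conditions did not overlap, with TKO-2i 1.59-fold lower (-0.67 ± 0.13, adjusted p = 0.002). Smarcad1, a remodeller that binds TRIM28, had 188, 227 and 193 CPM in TKO-2i and 227, 254 and 227 CPM in TKO-serum. The groups overlapped through TKO-2i replicate 2 and Smarcad1 was not called (-0.22 ± 0.08, adjusted p = 0.051), although its chromosome 6 had a median of 0.41. It was called lower under 11 of 17 alternatives, among them the fit without that library (adjusted p = 0.0013, and from 0.0013 to 0.17 as each library was left out), and at -0.63 (adjusted p = 0.00026) with chromosome medians taken out.

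The order of levels among the members covered a wide range, from a mean of 9.48 TPM to 1162 TPM. H3f3b was highest in TKO-2i with 1301 ± 74.5 TPM and Trim28 highest in TKO-serum with 1285 ± 71.3 TPM (SD, n = 3). Each was next in the other medium, with 1024 ± 22.5 TPM for H3f3b in TKO-serum and 891 ± 42.6 TPM for Trim28 in TKO-2i. H3f3a followed with 721 ± 63.1 TPM in TKO-2i and 913 ± 50.2 TPM in TKO-serum, and Sumo2 with 684 ± 18.2 and 618.5 ± 34.2 TPM. In TKO-2i H3f3a and Sumo2 overlapped in TPM, and in TKO-serum no library of H3f3a did so with Sumo2. Suv39h1 was the lowest member in TKO-2i with 6.51 ± 0.778 TPM, and Setdb2 the lowest in TKO-serum by its mean, with 11.4 ± 2.11 TPM, a level that overlapped with the 12.5 ± 0.790 TPM of Suv39h1.

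**Figure D3:**
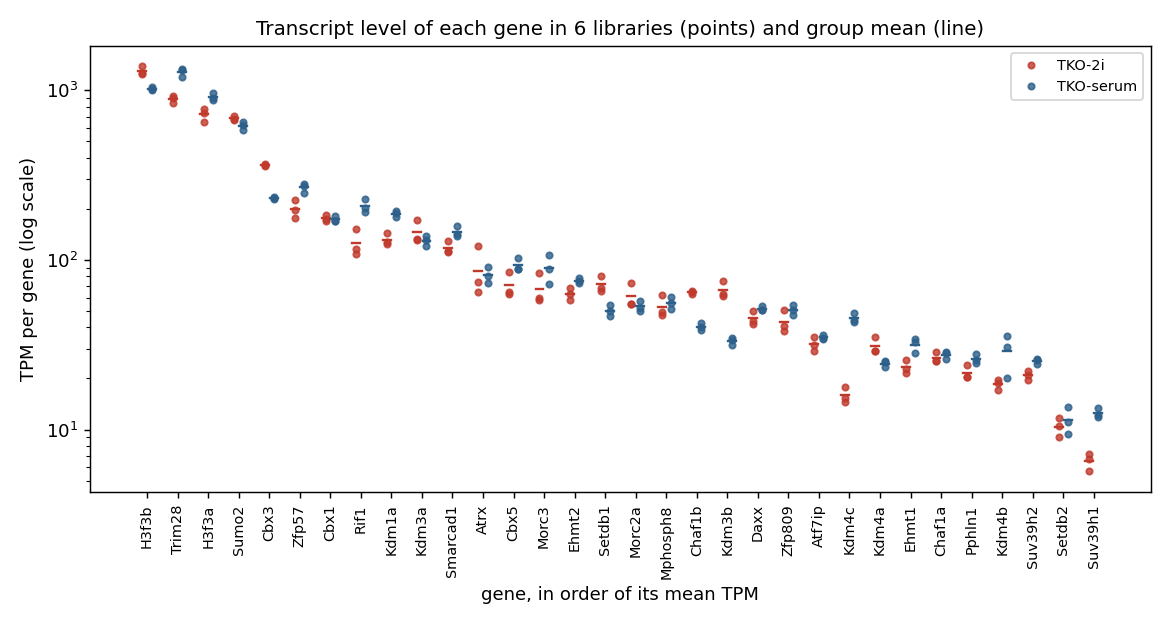
TPM per gene on a log scale (y axis) of the 32 genes in order of their mean (x axis), with points for the 3 TKO-2i and 3 TKO-serum libraries and lines for the means. H3f3b, Trim28, H3f3a and Sumo2 lie highest, Setdb2 and Suv39h1 lowest, and Kdm4c, Kdm3b and Suv39h1 show well separated conditions.

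Further genes were counted in lists. Of 108 listed genes 106 were tested and 55 were called, 22 higher and 33 lower, but these include the DNA methyltransferases and 17 genes that the machinery is known to silence. Lists of pathway genes alone held 87 genes, of which 85 were tested and 38 were called, 18 higher and 20 lower, beside 62.5% of all genes. Among 13 partners of the methyltransferases and PRDM enzymes 2 were higher and 6 lower. Uhrf1, which binds hemimethylated DNA and methylated H3K9, rose from 489.5 ± 9.0 to 959 ± 43.4 CPM (0.97 ± 0.05, adjusted p = 9.6e-07), and Prdm16 was also higher (0.77 ± 0.10). L3mbtl2, a reader in a repressive complex with G9a, had the largest fall of this list at a mean CPM of at least 1 (-0.60 ± 0.06, adjusted p = 4.8e-05), and Cdyl2 followed (-0.50 ± 0.07). Of 5 further H3K9 demethylases Phf2 was higher (0.77 ± 0.07) and Jmjd1c lower (-0.37 ± 0.12, adjusted p = 0.022), and Kdm4d was too low to be tested. Only 1 of these 5 was called without TKO-2i replicate 3, without TKO-serum replicate 2 or without TKO-serum replicate 3, where the share of all genes called fell to 54.9%, 55.4% and 54.6%.

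Of 8 HUSH partners and further MORC genes 1 was higher and 2 were lower, beside 62.5% of all tested genes called. Fam208b, a paralog of the HUSH subunit gene Fam208a, had 27.0, 35.8 and 27.9 CPM in TKO-2i and 90.9, 105 and 95.8 CPM in TKO-serum, a fall larger than the spread between replicates (-1.69 ± 0.11, adjusted p = 3.6e-06). Morc4 had 3.23, 3.34 and 3.38 CPM in TKO-2i and 8.66, 9.34 and 8.94 CPM in TKO-serum (-1.44 ± 0.08, adjusted p = 1.7e-06). Fam208a itself, with 90.3 ± 16.7 CPM in TKO-2i against 99.2 ± 8.77 in TKO-serum, was not called, and Morc1 was higher (0.23 ± 0.05). Without TKO-2i replicate 2, which raised the share of all genes called to 67.2%, 5 genes of this list were called in place of 3. Of 11 histone chaperones and heterochromatin remodellers 2 were higher (Asf1b at 0.29 and Cdca7 at 0.26) and 2 lower (Ubn1 at -0.36 and Asf1a at -0.34), beside 62.5% of all tested genes. Without TKO-2i replicate 2, 7 of these 11 were called, beside the same 67.2% of all genes.

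Of 15 SUMO pathway genes 2 were higher and 1 was lower, beside 62.5% of all tested genes called. Uba2, a subunit of the SUMO activating enzyme, rose from 409 ± 7.69 to 605 ± 15.6 CPM (0.56 ± 0.05, adjusted p = 1.2e-05), Senp1 was also higher (0.19 ± 0.06) and Sumo3 was lower (-0.34 ± 0.09). Without TKO-2i replicate 2, 7 of the 15 were called, again beside 67.2% of all genes. Of 16 TRIM28 partners and NuRD or CoREST subunits 6 were higher and 2 lower, beside the same 62.5% of all tested genes. Chd3, a NuRD ATPase on chromosome 11, was at 67.6 ± 4.52 CPM in TKO-2i against 39.5 ± 1.02 in TKO-serum (0.78 ± 0.06, adjusted p = 9.5e-06). The NuRD subunits Mta2 and Mta3 moved in opposite directions (0.54 ± 0.05 and -0.64 ± 0.06), and 5 of the 16 were called without TKO-2i replicate 1 and 4 without TKO-serum replicate 1 or TKO-serum replicate 3. The share of all genes called in these fits was 58.7%, 56.1% and 54.6%.

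Of 12 DNA-binding repressors of retroelements 1 was higher and 6 were lower in TKO-2i. Zfp819 rose (0.62 ± 0.05, adjusted p = 2.1e-05), while Adnp (-0.54 ± 0.07, adjusted p = 0.00028), which forms a complex with HP1 proteins, and Pogz (-0.47 ± 0.06, adjusted p = 0.00017) fell. Only 4 of the 12 were called without TKO-2i replicate 3 or without TKO-serum replicate 2, beside 54.9% and 55.4% of all genes. Of 7 methyltransferases of H4K20 and further readers 3 were higher, Kmt5b (0.37 ± 0.08), L3mbtl3 (0.34 ± 0.09) and Orc1 (0.23 ± 0.05), and none was lower at an adjusted p-value under 0.05. Both lists stand beside 62.5% of all tested genes called.

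Of 17 genes that this machinery or its partners are known to silence in mESCs, 3 were higher and 10 lower in TKO-2i. Among all tested genes 31.9% were called higher and 30.6% lower. Split after the values were seen, 7 genes of the 2-cell stage were all lower, with a median log2 fold change of -6.24, while of the other 10 genes 3 were higher and 3 lower, with a median of 0.20. The median of the 2-cell genes is the value of Duxf3, which had 0, 0.0682 and 0 CPM in TKO-2i, so its size is uncertain. Zscan4f, of a family of the 2-cell stage with near-identical copies among which reads are divided, had 0.335, 0.273 and 0.211 CPM in TKO-2i and 20.8, 23.1 and 23.6 CPM in TKO-serum. Zscan4c had 0.112, 0 and 0.0938 CPM in TKO-2i and 16.7, 16.2 and 14.8 CPM in TKO-serum, so that the size of its fall is uncertain. Tuba3a, on chromosome 6 with its median of 0.41, and Dazl were higher, with log2 fold changes of 1.40 ± 0.10 and 1.71 ± 0.06. Tuba3b, also on chromosome 6, was called higher by less than that median (0.29 ± 0.11, adjusted p = 0.041). Outside the 2-cell genes Mael (-3.64 ± 0.09), Slc25a31 (-2.02 ± 0.14) and Taf7l (-1.47 ± 0.12) were lower. Repeat elements themselves were not analysed here, and a link between these genes and the members' levels was not tested.

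The start regions of the members were rich in CpG. RefSeq promoters (GRCm38.p6, 250 bases before to 50 after a start) matched 29 of the 32 members, and Kdm3b, Kdm4b and Rif1 were not matched. Median GC content was 64% in the members and 52.7% in all 32817 promoters of the table, and the median number of CpG was 29 against 7. All members were expressed, while the promoters of the table were not chosen by expression. The differences in GC, CpG and motif shares are therefore not shown to be particular to the members. Short motifs were searched on both strands. The ETS motif CCGGAAG was found in 4 of the members and in 8.86% of all promoters, and the E-box CACGTG in 4 of the members and in 7.15% of all. The YY1 motif AAGATGG, which can share its letters AAG with the ETS motif, was found in 4 of the members and in 6.34% of all. A CCAAT box was found in 18 of the members and in 37.4% of all. An E2F motif (TTTCGCGC or TTTGGCGC) occurred in 1 member, Cbx3, and in 0.814% of all promoters, and the cAMP response element TGACGTCA in 1 member, Suv39h2, and in 1.79% of all. No member held the TCF motif CTTTGAT in this window, which was found in 3.73% of all promoters. Promoters are printed for the matched members that changed by 1.5-fold or more, with searched letters in capitals: Setdb1 (chr3:95357153-95357452, minus strand), Suv39h1 (chrX:8074312-8074611, minus strand), Cbx3 (chr6:51470366-51470665, plus strand), Chaf1b (chr16:93883651-93883950, plus strand) and Kdm4c (chr4:74251629-74251928, plus strand). The higher genes Setdb1 and Chaf1b hold CCGGAAG, on both strands in Setdb1, which also has 1 CCAAT box, and Cbx3 holds TTTGGCGC. Of the lower genes, Suv39h1 holds AAGATGG and Kdm4c holds CACGTG at 2 places. A match is a description of these letters and not a site shown to be bound.
Setdb1: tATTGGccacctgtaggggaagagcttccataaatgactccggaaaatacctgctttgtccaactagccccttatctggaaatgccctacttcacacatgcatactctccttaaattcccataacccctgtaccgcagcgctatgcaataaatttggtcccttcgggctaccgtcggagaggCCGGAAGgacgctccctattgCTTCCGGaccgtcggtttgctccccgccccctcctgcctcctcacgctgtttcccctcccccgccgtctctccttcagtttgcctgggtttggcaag
Suv39h1: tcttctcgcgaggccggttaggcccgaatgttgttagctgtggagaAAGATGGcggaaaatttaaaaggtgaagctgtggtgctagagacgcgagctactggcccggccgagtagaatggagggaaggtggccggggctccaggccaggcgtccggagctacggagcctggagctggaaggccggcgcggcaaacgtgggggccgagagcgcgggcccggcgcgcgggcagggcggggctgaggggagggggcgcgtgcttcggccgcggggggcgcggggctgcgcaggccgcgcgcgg
Cbx3: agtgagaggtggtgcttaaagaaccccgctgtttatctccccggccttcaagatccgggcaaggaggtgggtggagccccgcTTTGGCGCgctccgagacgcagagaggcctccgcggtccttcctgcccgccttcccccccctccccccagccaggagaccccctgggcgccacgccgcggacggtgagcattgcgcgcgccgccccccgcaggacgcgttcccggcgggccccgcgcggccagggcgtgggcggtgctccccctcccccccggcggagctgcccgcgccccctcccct
Chaf1b: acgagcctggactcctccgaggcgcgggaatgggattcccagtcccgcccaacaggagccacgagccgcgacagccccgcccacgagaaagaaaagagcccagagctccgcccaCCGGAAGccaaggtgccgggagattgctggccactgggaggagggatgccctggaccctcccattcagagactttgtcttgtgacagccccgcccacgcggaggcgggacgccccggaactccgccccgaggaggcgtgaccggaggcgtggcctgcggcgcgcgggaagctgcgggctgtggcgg
Kdm4c: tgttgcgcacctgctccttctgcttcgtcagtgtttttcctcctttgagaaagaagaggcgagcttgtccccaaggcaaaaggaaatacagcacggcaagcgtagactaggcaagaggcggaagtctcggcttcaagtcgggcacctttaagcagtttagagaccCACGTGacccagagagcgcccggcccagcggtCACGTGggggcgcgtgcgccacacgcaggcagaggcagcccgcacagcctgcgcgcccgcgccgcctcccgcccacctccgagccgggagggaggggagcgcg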

How the data were processed

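Poly(A)-selected, strand-specific RNA-seq of 3 TKO-2i and 3 TKO-serum samples was analysed. The estimated count per transcript was deposited by the authors for each library, and 84.7% to 85.4% of the values above 0 were not whole numbers. The authors also deposited TPM, which divides by transcript length and gives each library the same sum. The quantifier of these values is not given in the sources used here. For its RNA-seq the paper describes mapping with Tophat, RPKM per gene and DEseq, which are other values than those analysed here. The labels name the build mm10.

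Of 136288 transcripts, 99.92% had an entry in the primary assembly annotation of GENCODE M21 (GRCm38) and were summed to 53458 genes, and 0.0354% to 0.0459% of the estimated counts of a library were not matched. Counts were rounded, filtered with filterByExpr, normalized by TMM and tested for condition with glmQLFit and glmQLFTest of edgeR 4.0.16 (R 4.3.3), with Benjamini-Hochberg adjustment over 18190 genes. The standard error was the size of the log2 fold change divided by the square root of F. Transcript use was tested with diffSpliceDGE. Shares within families were compared by exact two-sided permutation tests. Shared 75-base sequences were counted between annotated transcripts. Gene and usage fits were tested on simulated data. Python 3.11.15, numpy 2.4.6, pandas 2.3.3 and matplotlib 3.10.9 were used.

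The lowest correlation of log2 CPM between replicates, across genes, was 0.988, and the biological coefficient of variation was 0.0902. No replicate pair was the same library, as the chi-square between their counts was 4.69 or more per gene. Floors of 3 counts cover counting error only, not PCR copies.

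The alternatives tried were the Wald test of DESeq2 1.42.0, its size factors within edgeR, no low-count filter, at least 10 counts in every library, length-scaled TPM counts, limma 3.58.1 on log2(TPM + 1) and log2(TPM + 0.1), protein-coding genes only, a replicate block, chromosome medians taken out, and each of the 6 libraries left out in turn. Genes of the reference chromosomes only, and 2 further usage tests (limma on the log2 ratio of a transcript to the rest of its gene, and edgeR on the same 2 parts), were chosen after seeing the data. The members and lists were chosen with earlier results of these data known. Named genes are all members and, per list, the called genes with the largest rise and fall at a mean CPM of at least 1. Other genes named beside them were chosen after their values were seen.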

Additional observations from a re-analysis of the deposited data

How the results depend on the processing

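Of the 20 called members, 14 kept their direction and call under all 17 alternatives. Members called numbered 17 to 24 with each library left out in turn and 20 to 22 under the other 10 besides the block. The share of all genes called ran from 54.6% to 67.2% with libraries left out, and was 44.1% with DESeq2 and 35.3% with no filter. The 9 higher and 11 lower became 6 and 14 with chromosome medians taken out and 7 and 14 with limma at either pseudocount. Of all called genes, 51.1% were higher in the main fit and 49.5% with chromosome medians taken out. With limma at pseudocounts of 1 and 0.1 these were 41.8% and 41.9%, so fewer of all called genes were higher there too. Over the 32 members, 469 values kept direction and call, 30 gained a call, 19 lost it and 26 turned.

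With chromosome medians taken out, Setdb2 was at 0.0581, Atf7ip -0.38, Sumo2 -0.023, Cbx1 -0.16, Morc2a -0.0107 and Kdm3a -0.21, as the offset takes out medians of 0.41, 0.26 and -0.15 on chromosomes 6, 11 and 14. Cbx5 (adjusted p = 0.069) and Pphln1 (adjusted p = 0.097) were then not called. The cause of the other turns, all in members not called, was not tested. The median over all genes was 0.0124 in the main fit and -0.0065 with DESeq2's size factors. It was -0.0602 with DESeq2, -0.0697 with no filter, and -0.0577 and -0.0853 with limma at pseudocounts of 1 and 0.1. With at least 10 counts, length-scaled counts and protein-coding genes only it was 0.0111, 0.0079 and 0.0091. Atf7ip was at -0.0058 with at least 10 counts in every library, -0.0498 with length-scaled counts, -0.14 with limma at either pseudocount, and from -0.0112 to 0.06 with libraries left out. Mphosph8 was at -0.0186 with DESeq2's size factors, -0.0042 with DESeq2, -0.0141 with no filter, -0.0404 with at least 10 counts, -0.086 and -0.0876 with limma at pseudocounts of 1 and 0.1, -0.0234 with protein-coding genes only, and from -0.0629 to 0.0525 with libraries left out. Chaf1a was at -0.0637 and -0.0659 with limma. With libraries left out, Atrx ran from -0.0083 to 0.27 and Daxx from -0.0699 to 0.0163. Morc2a lost its call with limma at either pseudocount (adjusted p = 0.22), and Kdm3a with limma (0.27) and with at least 10 counts (0.062).

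Member transcripts called for usage numbered 16 with limma's diffSplice, which called 6.68% of all transcripts, and 8 with at least 10 counts in every library, where 4.30% were called. They numbered 3 to 6 with libraries left out, beside 1.20% to 1.71% of all. Differences in family share, in points, were 9.99 for H3f3b, 3.21 for Setdb1, 15.3 for Kdm3b and 25.6 for Kdm4a from estimated counts, and 13.4 for H3f3b, 6.13 for Suv39h2, 13.5 for Kdm3b and 24.6 for Kdm4a from coding transcripts only. In that last setting Suv39h2 overlapped between conditions (p = 0.4, exact two-sided permutation test) and Suv39h1 had the larger mean share in TKO-serum, at 53.9%. Without genes under a mean of 1 CPM the medians were 0.50 on chromosome 6, -0.0481 on chromosome 13 and -0.0826 on chromosome 14. These causes were not tested.

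The samples share only replicate numbers. Same-numbered deviations from the group means correlated across genes at 0.242, 0.329 and 0.0142, and 5 of 6 libraries correlated best with their own number, a hint from the data and not the design. With the replicate block 12553 genes were called in place of 11368, and 26 members (10 higher, 16 lower) in place of 20, with Mphosph8 at -0.0002. The 74 list genes and 6 member transcripts called with the block stand beside 55 and 4 without it. Over all tested genes 69% were called with the block and 62.5% without it. Over all transcripts tested for usage these shares were 1.22% and 1.44%.

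A member not called is not shown to be unchanged. Copy number, protein and histone marks were not analysed here.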
